A study of Saccharomyces cerevisiae with 23 samples.

Results

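Described here are 47 nuclear genes of budding yeast, Saccharomyces cerevisiae, that encode the enzymes of the tricarboxylic acid (TCA) cycle, the complexes of the respiratory chain and the ATP synthase. They were listed by name, and all 47 were found among 6867 gene rows. Every one passed the filter on low values, so none is left out of a count below. They fall into 10 genes of the TCA cycle, 4 of complex II, 2 NADH dehydrogenases, 9 of complex III, 2 of cytochrome c, 9 of complex IV and 11 of the ATP synthase.

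The TCA cycle oxidises acetyl groups in the mitochondrial matrix and hands their electrons to NADH and, at succinate dehydrogenase, to ubiquinone. Complex III, cytochrome c and complex IV pass the electrons on to oxygen and build a proton gradient, which the ATP synthase spends. Budding yeast lacks the proton-pumping complex I of other organisms and uses single-protein NADH dehydrogenases in its place. Respiration is needed for this yeast to enter meiosis and form spores, and many of the genes are activated by the CCAAT-binding HAP complex.

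Cells of a single strain, labelled strain A 33606, were followed through one meiotic time course in SPO (sporulation) medium after growth in YPD and BYTA media. Every sample carries IME1, the activator of meiotic entry, and IME4, an RNA methyltransferase, under the copper-responsive promoter of CUP1, and copper sulphate was added at 2 h, per the labels. Total RNA was sequenced in 23 libraries. After the 0 h library, the times were split into windows of 2 to 3 h (5 libraries), 3.25 to 4.5 h (6), 4.75 to 6 h (6) and 6.5 to 10 h (5). No time was sampled more than once, so the libraries of a window follow each other in time and are not replicates, and the labels do not mention separate cultures. The SD given with a mean is that of a window's libraries, and a p-value sets a change against the scatter of single libraries about the window means or about a smooth curve. The labels do not say whether the 2 h library preceded the copper.

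Expression is given as FPKM, fragments per length of the gene and per depth of the library. The library factor, the median ratio of a library's genes to their usual level, ran from 0.257 at 7.5 h to 1.83 at 4.75 h, so each FPKM was divided by it. The result is called scaled FPKM, and differences are on the log2(scaled FPKM + 1) scale. By the authors' confidence bounds, listed genes drew about 368883 fragments at 7.5 h, the fewest, and 1467241 at 4.75 h, the most. For the median member this came to 323 fragments at 4.75 h and 11 at 7.5 h, so late values of low members are imprecise. IME1 stood at 50.5 scaled FPKM at 0 h, 763 at 2 h and 8661 at 2.25 h, and IME4 at 7.6, 83.6 and 2864. NDT80, the activator of the middle meiotic genes, was at most 5.52 scaled FPKM up to 4 h and 455 at 6 h. In bulk RNA, fewer cells that hold a transcript and less transcript per cell cannot be told apart.

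Across the whole course from 2 h on, most of the respiratory genes fell and a small set rose. A gene was called when limma's spline test gave an adjusted p under 0.05 and the fitted curve spanned at least 1 on the log2 scale, and the direction was that of the larger departure from the fitted 2 h value. A rise or fall so called may have reversed later in the course. By this test 29 of the 47 members fell, 10 rose and 8 were not called. Of all 6560 genes tested, 39.8% fell and 38.1% rose. The 10 rising members were CIT1, KGD1, KGD2 and MDH1 of the TCA cycle, the NADH dehydrogenase NDE1, RIP1 and CYT1 of complex III, the cytochrome c gene CYC1, and COX5A and COX5B of complex IV. No member of complex II or of the ATP synthase rose. With FPKM as deposited, 37 members fell and 8 rose, beside 52% and 31.1% of all genes, and 29 members fell and 7 rose both ways.

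**Figure D1:**
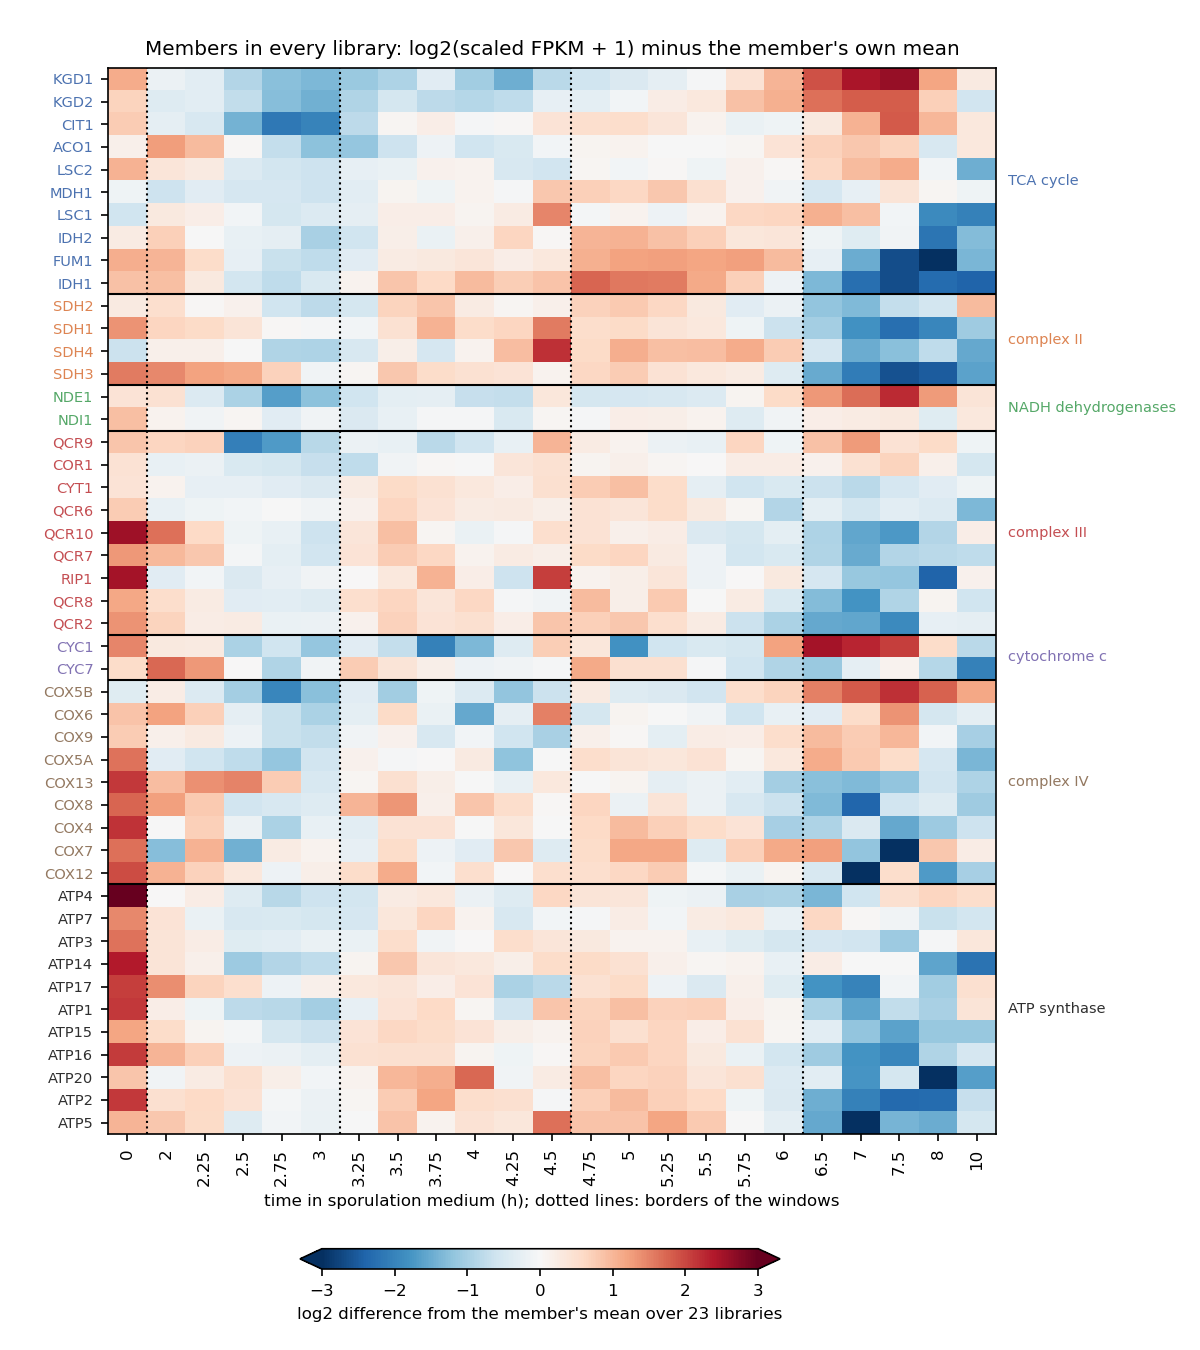
Each row is a member and each column a library, from 0 to 10 h in sporulation medium; colour gives log2(scaled FPKM + 1) minus the member's own mean over the 23 libraries, red above and blue below it. Rows are grouped by complex and dotted lines mark the window borders. Most ATP synthase rows are reddest at 0 h, and from 6.5 h on most rows are blue while KGD1, CIT1, NDE1 and COX5B are red, as are KGD2 and CYC1 up to 8 h.

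Most calls between windows involved the late libraries. Between the 6.5 to 10 h and the 4.75 to 6 h libraries, 19 members were lower and 4 were higher at an adjusted p under 0.05 (limma) and a difference of at least 1 on the log2 scale. Of all genes tested, 17.1% were lower and 15.8% higher. The median member differed by -0.91 on the log2 scale and the median of all genes by -0.06. With FPKM as deposited, where the median of all genes differed by -0.99 and that of the members by -2.08, 36 members were lower and 0 higher, beside 43.8% and 4.09% of all genes. All 19 members that were lower on the scaled values were also lower there. The 4 that were higher on the scaled values, KGD1, NDE1, CYC1 and COX5B, kept a positive difference of 0.42 to 0.49 that was not called. Among the members not called on the scaled values, the differences of CIT1, KGD2, ACO1, LSC2, NDI1, COR1, QCR9, COX6, COX9 and ATP4 were above 0 there and below 0 with FPKM as deposited.

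**Figure D2:**
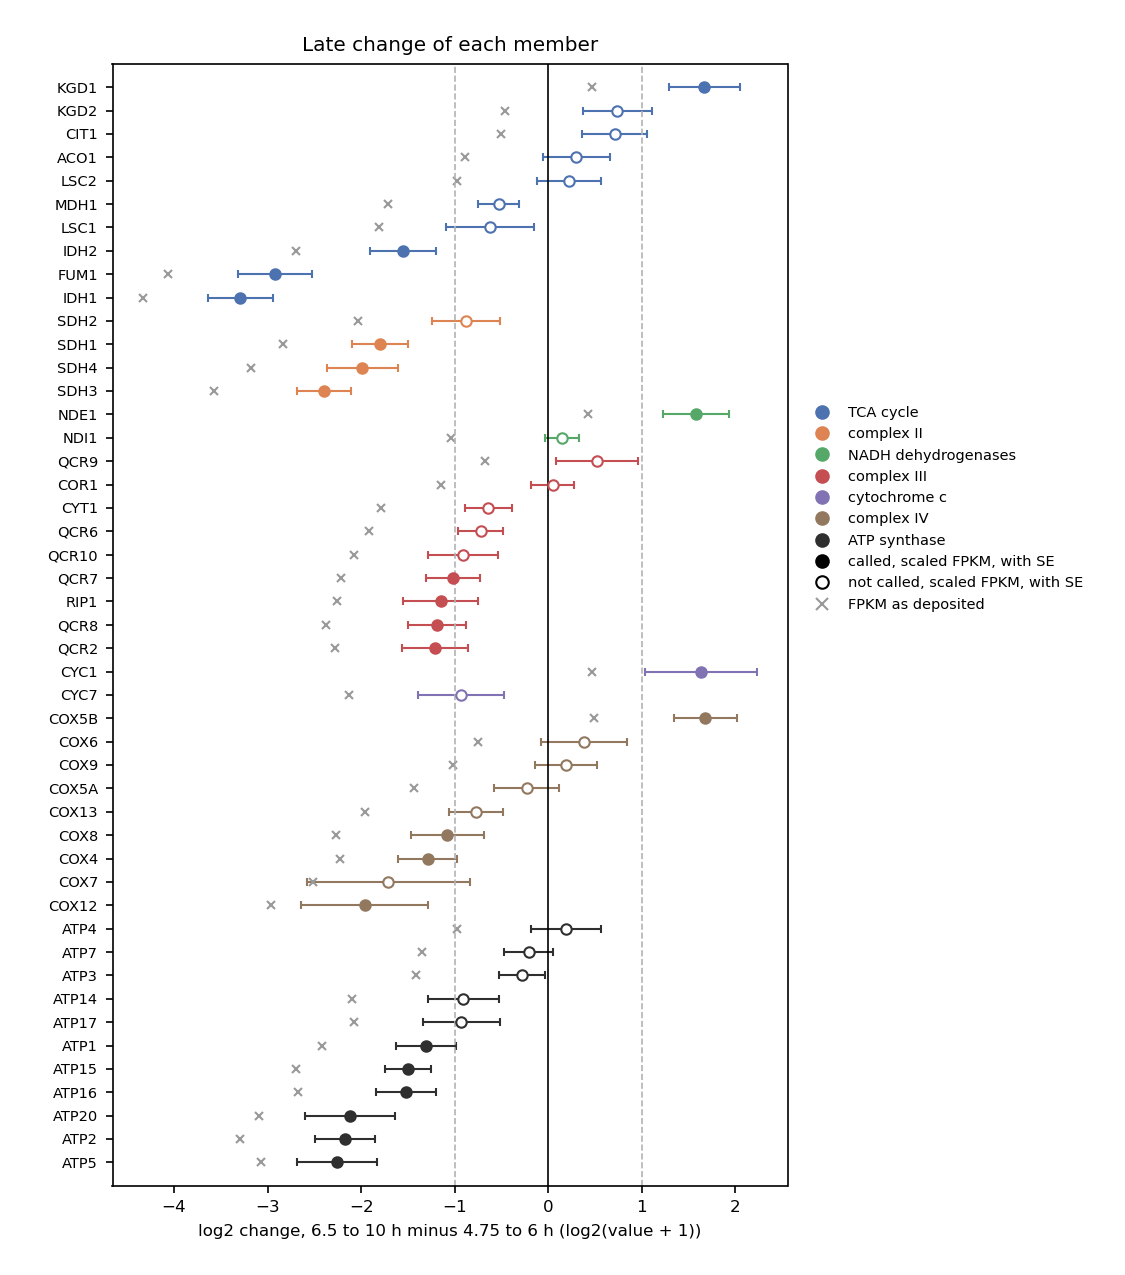
For each member the circle gives the log2 difference between the 6.5 to 10 h and the 4.75 to 6 h libraries from limma on scaled FPKM, with its standard error, filled where called; grey crosses give the same difference with FPKM as deposited. Dashed lines mark a difference of 1 in each direction. The values run from -3.29 for IDH1 to 1.68 for COX5B, and complex II lies wholly to the left of 0.

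The level of the members also moved before 6 h: the median member stood at 101 scaled FPKM at 2 h, 48.5 at 2.75 h, 115 at 5 h and 64.1 at 6 h, and between 44.8 and 70.5 in the late libraries. No member, though, was called between the 3.25 to 4.5 h and the 2 to 3 h libraries, where 0.991% of all genes were called, and none between the 4.75 to 6 h and the 3.25 to 4.5 h libraries, where 1.54% were. At an unadjusted p under 0.05 in limma, 7 members passed in the first of these contrasts and 4 in the second, beside 1029 and 1081 of all genes. Between the 6.5 to 10 h and the 2 to 3 h libraries 16 members were lower and 7 higher, against backgrounds of 22.9% and 19.7%. With FPKM as deposited these counts were 29 and 4, beside 41.1% and 10.4%. The 2 late contrasts share the 6.5 to 10 h libraries. The 16 were IDH1, FUM1, SDH1, SDH3, QCR2, QCR7, QCR10, CYC7, COX8, COX12, COX13, ATP2, ATP5, ATP16, ATP17 and ATP20, and the 7 were CIT1, KGD1, KGD2, NDE1, QCR9, CYC1 and COX5B. Single libraries decide some of these calls: QCR7 without 2 or 2.25 h, QCR10 without 2 h, COX8 without 2 or 7 h and CYC7 without 2, 2.25, 6.5, 8 or 10 h were not called, at differences of -1.24 to -0.89. CYC1 was not called without 2.5, 3, 6.5, 7 or 7.5 h, at 1.45 to 1.62, nor with FPKM as deposited (0.81), under quantile normalisation (1.25) or with the borders moved (1.44). Of the 22 libraries from 2 h on, the lowest value lay in the 6.5 to 10 h window for 35 members and in the 4.75 to 6 h window for 0, while for all genes these shares were 50.9% and 9.1%. The highest value lay in the 3.25 to 6 h libraries for 24 members, 15 of them from 3.25 to 4.5 h and 9 from 4.75 to 6 h, beside 17.4% and 7.97% of all genes. For 15 members it lay in the 6.5 to 10 h window and for 8 in the 2 to 3 h window, beside 51.2% and 23.5% of all genes.

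The promoters of 6 members are shown because these genes carry the late split: IDH1, SDH3 and ATP2 are among the largest falls and KGD1, NDE1 and COX5B are 3 of the 4 that were higher. Each sequence covers the 300 bases from 400 to 101 bases upstream of the coding start in the R64 reference genome, read 5′ to 3′ on the gene's strand, and capitals mark CCAAT on either strand (ATTGG where it lies on the other strand).
IDH1 (chrXIV:559103-559402, minus strand): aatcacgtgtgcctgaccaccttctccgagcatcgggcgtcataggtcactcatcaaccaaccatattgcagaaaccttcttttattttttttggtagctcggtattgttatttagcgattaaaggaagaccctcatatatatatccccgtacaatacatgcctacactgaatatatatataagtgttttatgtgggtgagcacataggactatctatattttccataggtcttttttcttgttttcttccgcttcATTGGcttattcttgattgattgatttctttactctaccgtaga
SDH3 (chrXI:179267-179566, plus strand): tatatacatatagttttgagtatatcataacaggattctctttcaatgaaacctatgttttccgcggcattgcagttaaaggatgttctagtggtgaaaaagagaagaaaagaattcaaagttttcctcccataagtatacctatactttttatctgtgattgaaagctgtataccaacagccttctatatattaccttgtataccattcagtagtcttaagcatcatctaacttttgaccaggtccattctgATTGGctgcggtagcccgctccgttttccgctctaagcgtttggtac
ATP2 (chrX:647207-647506, plus strand): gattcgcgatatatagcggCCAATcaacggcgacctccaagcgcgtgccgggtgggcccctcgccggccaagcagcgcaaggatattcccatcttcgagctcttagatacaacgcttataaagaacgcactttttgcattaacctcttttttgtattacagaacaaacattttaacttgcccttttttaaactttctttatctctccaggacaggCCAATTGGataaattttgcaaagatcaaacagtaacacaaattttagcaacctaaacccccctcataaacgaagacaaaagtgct
KGD1 (chrIX:122289-122588, plus strand): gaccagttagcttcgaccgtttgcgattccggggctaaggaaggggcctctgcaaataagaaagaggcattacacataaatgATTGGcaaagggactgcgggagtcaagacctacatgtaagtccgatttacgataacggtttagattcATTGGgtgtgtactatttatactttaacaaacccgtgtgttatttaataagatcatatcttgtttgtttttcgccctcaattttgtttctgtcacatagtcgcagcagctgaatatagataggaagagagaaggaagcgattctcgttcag
NDE1 (chrXIII:556576-556875, minus strand): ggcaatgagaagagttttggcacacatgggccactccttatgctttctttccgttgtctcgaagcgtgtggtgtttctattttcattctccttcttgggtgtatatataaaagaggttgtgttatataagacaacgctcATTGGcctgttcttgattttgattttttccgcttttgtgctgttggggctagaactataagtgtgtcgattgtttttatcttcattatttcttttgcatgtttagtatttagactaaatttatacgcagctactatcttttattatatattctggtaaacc
COX5B (chrIX:154822-155121, plus strand): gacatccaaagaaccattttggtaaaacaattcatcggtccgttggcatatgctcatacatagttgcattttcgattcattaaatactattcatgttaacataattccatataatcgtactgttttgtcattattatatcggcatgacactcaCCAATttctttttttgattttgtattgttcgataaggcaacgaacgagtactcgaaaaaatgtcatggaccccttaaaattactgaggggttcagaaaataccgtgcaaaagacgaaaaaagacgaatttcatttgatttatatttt

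CCAAT, the core of the site that the HAP complex binds, was found on either strand in this window of 40 of the 47 members (85.1%) and of 2637 of 6007 promoters of the same length (43.9%). It was found in 17 of the 19 members that were lower late (89.5%), in 3 of the 4 that were higher (75%) and in 20 of the 24 that were not called (83.3%). ATP2 has 3 matches and KGD1 has 2, and CYC1 and CYC7 have none in this window. The core of the middle sporulation element, the site that NDT80 binds, was searched as GNCACAAA and GNCGCAAA on both strands. It was found in 4 members (8.51%), ACO1, COX5A, KGD2 and RIP1, and in 7.69% of all promoters. A match is a description of these letters and not a site shown to be bound. The motifs and the window were chosen after the values of the members had been seen.

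In the TCA cycle the late libraries split neighbouring enzymes apart. IDH1 (YNL037C, chromosome XIV, 557920 to 559002), a subunit of the NAD-dependent isocitrate dehydrogenase, had the largest fall of all members. In the 6.5, 7, 7.5, 8 and 10 h libraries it stood at 14.2, 7.12, 5.19, 6.82 and 6.35 scaled FPKM, against a lowest of 33.7, a median of 98.8 and a highest of 129 in the 4.75 to 6 h libraries. Every late library was thus below every library of the earlier window. The difference was -3.29 ± 0.35 on the log2 scale (SE; limma adjusted p = 1.08e-06). At 7.5 h the deposited value of IDH1 was 1.33 FPKM with the authors' bounds at 0 and 2.88, which imply 3 fragments.

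KGD1 (YIL125W, chromosome IX, 122689 to 125733), the first subunit of the 2-oxoglutarate dehydrogenase that follows in the cycle, moved the other way. It stood at 208, 306, 342, 127 and 66.6 scaled FPKM in the 6.5, 7, 7.5, 8 and 10 h libraries, against a lowest of 35.9, a median of 49.4 and a highest of 112 in the 4.75 to 6 h libraries. The 10 h library lies within the range of the earlier window and the other late libraries lie above it. KGD1 was higher by 1.67 ± 0.38 (SE; adjusted p = 0.0016), and by 0.47 with FPKM as deposited (adjusted p = 0.138). It was also not called under quantile normalisation (0.98) or with the window borders moved by 1 library (1.20, adjusted p = 0.0534). Against the 2 to 3 h libraries it was higher by 2.48 ± 0.40 (adjusted p = 3.95e-05), and there also with FPKM as deposited (1.53).

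The library that gives KGD1 its highest scaled value, 7.5 h, is the one with the lowest library factor, and 8 members have their highest value there while 11 have their lowest. The deposited FPKM of KGD1 was 87.9 at 7.5 h and 164 at 7 h, its highest. The part of the factor in the height of the 7.5 h values was not tested. A ratio of genes within a library does not depend on it. The ratio of KGD1 to IDH1 lay between 0.278 and 1.2 in every library from 2 to 5.75 h, and was 3.33 at 6 h, 14.6 at 6.5 h, 43 at 7 h, 65.8 at 7.5 h, 18.6 at 8 h and 10.5 at 10 h. Both genes had been called late in opposite directions, so their ratio describes the split and is no separate test of it. Its value at 7.5 h is imprecise, because IDH1 rests on 3 implied fragments there.

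KGD2 (YDR148C, chromosome IV, 753675 to 755066), the second subunit of the 2-oxoglutarate dehydrogenase, followed the course of KGD1. It averaged 353 ± 181 scaled FPKM at 6.5 to 10 h (SD, n = 5) and 82.7 ± 28.2 at 2 to 3 h (SD, n = 5), a difference of 1.92 ± 0.39 (SE; adjusted p = 0.000419). Its 10 h library, at 94.2, lies within the range of the 2 to 3 h libraries, and with FPKM as deposited the difference was 0.96 and not called. CIT1 (YNR001C, chromosome XIV, 629622 to 631061), the mitochondrial citrate synthase and the cycle member of highest mean level, averaged 555 ± 264 at 6.5 to 10 h and 131 ± 76.3 at 2 to 3 h (SD, n = 5 each). The groups do not overlap, and the difference was 2.16 ± 0.36 (SE; adjusted p = 6.35e-05). CIT1 was lowest at 2.75 h, at 61.2, and stood at 159 at 3.25 h and 287 at 3.5 h. Against 4.75 to 6 h neither KGD2 nor CIT1 was called, and with FPKM as deposited their differences there turned negative.

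FUM1 (YPL262W, chromosome XVI, 47336 to 48802), the fumarase, stood at 82.4, 34.3, 14.5, 10.2 and 37.1 scaled FPKM in the 5 late libraries, against 189 to 230 in the 4.75 to 6 h libraries. The windows do not overlap, and the difference was -2.92 ± 0.40 (SE; adjusted p = 1.13e-05). IDH2, the partner subunit of IDH1, was lower late with the windows apart (difference -1.55 ± 0.35, adjusted p = 0.00148). Its row shares 22.6% of its length with IRC14. ACO1, the aconitase between CIT1 and IDH1 in the cycle, averaged 110 ± 33.6 at 6.5 to 10 h and 85.5 ± 9.82 at 4.75 to 6 h and was not called late. Over the course ACO1 fell by the spline test, with 189 scaled FPKM at 2 h and 33.3 at 3 h. LSC1 and LSC2, the subunits of succinyl-CoA ligase, fell over the course by the spline test (fitted ranges 2.86 and 2.00), while their late window changes of -0.62 and 0.22 were not called. Both were lowest at 10 h, LSC1 at 30.4 and LSC2 at 80.6. MDH1, the mitochondrial malate dehydrogenase, had the smallest fitted range of the cycle, 1.11, and rose to a fitted maximum at 4.85 h.

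**Figure D3:**
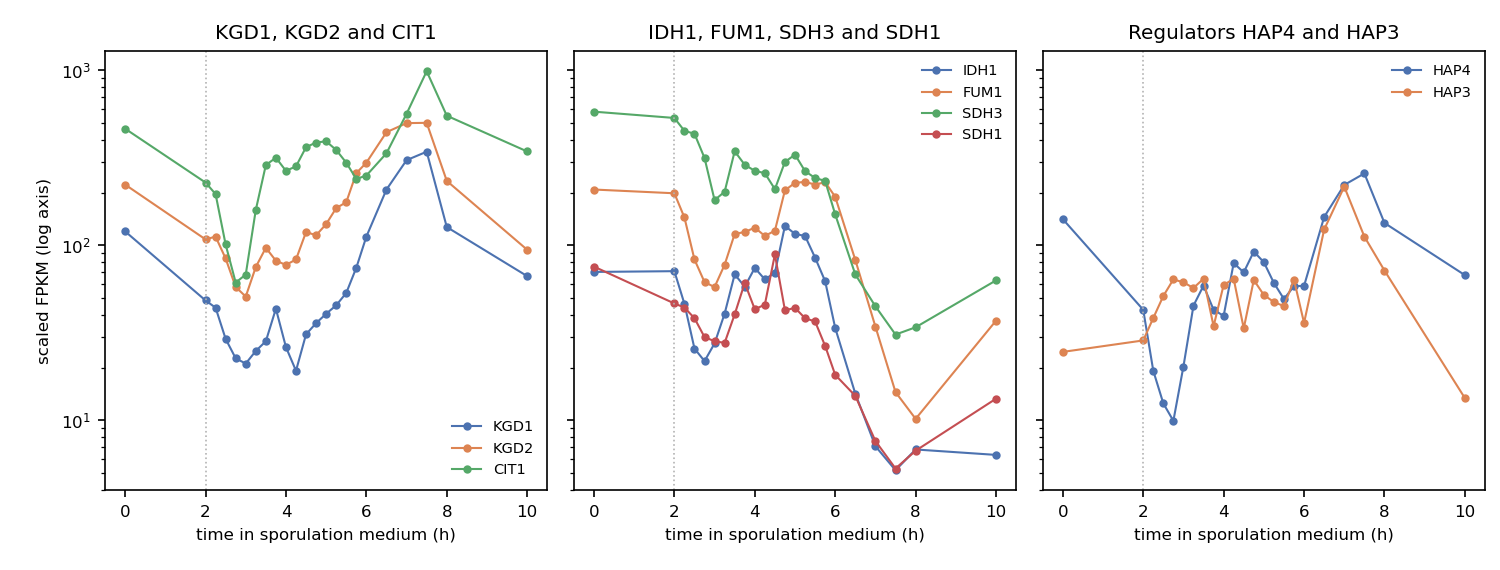
Scaled FPKM of KGD1, KGD2 and CIT1 (left), of IDH1, FUM1, SDH3 and SDH1 (middle) and of the regulators HAP4 and HAP3 (right) in every library, on a log axis that the panels share, against hours in sporulation medium; the dotted line marks 2 h, when copper was added. After 6 h the left panel climbs to 7.5 h, where KGD1 reaches 342, while IDH1 drops to 5.19 in the middle panel. HAP4 has its minimum of 9.94 at 2.75 h and its maximum of 257 at 7.5 h.

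Complex II, the succinate dehydrogenase that joins the cycle to the chain, was lower late as a group. All 4 of its genes fell over the course by the spline test, and 3 of the 4 were lower at 6.5 to 10 h than at 4.75 to 6 h, with a group median of -1.89. SDH3 (YKL141W, chromosome XI, 179667 to 180263), which encodes a membrane anchor and is the complex II gene of highest level, stood at 68.1, 44.8, 30.9, 34 and 63 scaled FPKM in the 5 late libraries. Against these, its lowest, median and highest values were 150, 254 and 329 at 4.75 to 6 h. No late library reached the earlier window, and the difference was -2.40 ± 0.29 (SE; adjusted p = 3.96e-06). SDH3 had also dipped earlier, from 533 scaled FPKM at 2 h to 181 at 3 h, and stood at 344 at 3.5 h and 329 at 5 h.

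SDH4, the other membrane anchor, differed by -1.99 ± 0.38 (adjusted p = 0.000371) and SDH1, the flavoprotein, by -1.80 ± 0.30 (adjusted p = 8.84e-05), both with windows apart. SDH1 averaged 9.35 ± 3.93 scaled FPKM at 6.5 to 10 h and 34.4 ± 9.98 at 4.75 to 6 h (SD, n = 5 and 6). The iron-sulphur subunit SDH2 stood at 20.2, 18.1, 28, 31.7 and 91.3 in the late libraries. Its 10 h value is its highest of the course, and the late difference of -0.88 ± 0.36 was not called (adjusted p = 0.058). SDH4 had a single high library at 4.5 h, 730 scaled FPKM beside 112 to 303 in the rest of its window.

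The 2 NADH dehydrogenases among the members differed from each other. NDI1, which takes electrons from NADH inside the matrix, had the smallest fitted range of the 47 members, 0.51, and was not called on the scaled values (spline adjusted p = 0.358). With FPKM as deposited it was lower late, by -1.04 beside -0.99 for the median of all genes. It stood between 41.8 and 71.8 scaled FPKM in the 22 libraries from 2 h on. NDE1 (YMR145C, chromosome XIII, 554793 to 556475), which takes them from NADH in the cytosol, stood at 49.5, 64.3, 94.7, 48 and 25.4 in the late libraries, against a lowest of 13.2, a median of 13.9 and a highest of 29.4 at 4.75 to 6 h. Its 10 h library lies within the earlier range. NDE1 was higher by 1.58 ± 0.35 (SE; adjusted p = 0.00136), and by 0.42 with FPKM as deposited (adjusted p = 0.242). NDE2, the other NADH dehydrogenase for cytosolic NADH, is not a member and was named after its values were seen. It averaged 232 ± 133 scaled FPKM at 2 to 3 h, 86.8 ± 34.5 at 4.75 to 6 h and 101 ± 138 at 6.5 to 10 h (SD). NDE2 fell over the course by the spline test. Its late difference was -1.86 ± 0.60 against 2 to 3 h (SE, limma adjusted p = 0.0134) and -0.58, not called, against 4.75 to 6 h.

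In complex III the subunits did not move as one. Of its 9 genes 5 fell, 2 rose and 2 were not called over the course, and 4 were lower late. QCR2 (YPR191W, chromosome XVI, 919381 to 920487), a core subunit, stood at 8.9, 8.82, 6.74, 23.5 and 23 scaled FPKM in the late libraries, against 13.9 to 49.3 at 4.75 to 6 h, and the difference was -1.21 ± 0.35 (SE; adjusted p = 0.0085). With the borders moved it was -0.72 and not called. The other core subunit, COR1, averaged 121 ± 34.7 at 6.5 to 10 h and 113 ± 6.99 at 4.75 to 6 h, with a difference of 0.05 ± 0.23 that was not called and the smallest fitted range of the complex, 0.75. QCR10, a small subunit, had the largest fitted range, 2.38, and fell.

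RIP1, the iron-sulphur protein of complex III, rose over the course to a fitted maximum at 4.55 h and differed late by -1.15 ± 0.40 (adjusted p = 0.0248). The maximum rests on the 4.5 h library, at 138 scaled FPKM beside 20.4 to 66.7 in the other libraries of its window. The late call is lost without the 7.5 h library (-1.12, adjusted p = 0.0512), without the 8 h library (-0.80, adjusted p = 0.0908) and with a pseudocount of 5 (-0.95). CYT1, the cytochrome c1, rose to a fitted maximum at 4.55 h and was lowest at 7 h, at 18.8 scaled FPKM. QCR8 and QCR7, both small subunits, differed by -1.19 ± 0.31 and -1.02 ± 0.29 (adjusted p = 0.00477 and 0.00826). The QCR8 call is lost without the 7 h library (-0.96), and that of QCR7 without the 4.75, 5, 5.25 or 7 h library, where the difference was between -0.98 and -0.89. With the borders moved neither was called (-0.71, adjusted p = 0.167 for QCR8 and -0.80, adjusted p = 0.0713 for QCR7), nor was QCR7 with a pseudocount of 5 (-0.99). QCR9, the complex III gene of highest mean level, was higher at 6.5 to 10 h than at 2 to 3 h by 1.25 ± 0.46 (adjusted p = 0.0285). That call is lost without the 2.5, 2.75, 3, 6.5 or 7 h library (0.91 to 1.21, adjusted p = 0.0533 to 0.102), and with FPKM as deposited (0.30), under quantile normalisation (0.41) and with the borders moved (1.11).

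Cytochrome c is encoded by CYC1, the main form in respiring cells, and CYC7, the minor form known for expression at low oxygen. In these libraries CYC7 was the more abundant for most of the course. CYC7 (YEL039C, chromosome V, 79636 to 79977) was at 678 scaled FPKM at 2 h and CYC1 (YJR048W, chromosome X, 526335 to 526664) at 26.8. In the 6.5, 7, 7.5, 8 and 10 h libraries CYC1 stood at 129, 111, 94.9, 32.3 and 12.1, against a lowest of 5.45, a median of 15.2 and a highest of 52.1 at 4.75 to 6 h. The 8 and 10 h libraries lie within the earlier range, and the difference of 1.63 ± 0.60 passed narrowly (SE; adjusted p = 0.0332). Leaving out the 5, 5.25, 5.5, 5.75, 6.5, 7 or 7.5 h library ends that call, with differences of 1.33 to 1.60 and adjusted p of 0.0536 to 0.0941. With FPKM as deposited the difference was 0.47 (adjusted p = 0.482), under quantile normalisation it was 1.14 (adjusted p = 0.109), and with the borders moved it was 0.98 (adjusted p = 0.324).

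The log2 ratio of CYC7 to CYC1, which the scaling barely touches, was 1.00 ± 0.98 at 6.5 to 10 h and 3.56 ± 1.47 at 4.75 to 6 h (SD, n = 5 and 6), a difference of -2.56 (two-sided exact permutation p = 0.0173, adjusted over 12 tests 0.0346). At 6.5 h it was -0.47, its only negative value, and the 6 h library of the earlier window, at 1.03, already lay within the late range. CYC1 rests on few implied fragments, 13 at 2 h, 4 at 5 h and 8 at 7.5 h. The ratio is therefore imprecise, as in its highest value, 5.46 at 5 h. Against 3.99 ± 0.67 at 2 to 3 h (SD, n = 5) the difference was -2.99 and the windows were apart (exact p = 0.00794, the smallest that 5 against 5 allows; adjusted 0.0346).

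Complex IV, the cytochrome c oxidase, has a pair of alternative forms for its subunit 5, COX5A, the form known from cells with oxygen, and COX5B, the form known at low oxygen. COX5B (YIL111W, chromosome IX, 155222 to 155765) stood at 101, 126, 163, 120 and 78.5 scaled FPKM in the late libraries, against a lowest of 23, a median of 34 and a highest of 56.2 at 4.75 to 6 h. Every late library was above every library of the earlier window, and the difference was 1.68 ± 0.34 (SE; adjusted p = 0.000544), against 0.49 with FPKM as deposited (adjusted p = 0.195). COX5A (YNL052W, chromosome XIV, 531725 to 532186) rose over the course and was not called late, with 290, 229, 194, 92.7 and 50.3 in the late libraries and 138 to 190 at 4.75 to 6 h.

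The log2 ratio of COX5B to COX5A was -0.32 ± 0.88 at 6.5 to 10 h and -2.23 ± 0.63 at 4.75 to 6 h, a difference of 1.91 (two-sided exact permutation p = 0.00866, adjusted 0.0346). It was -1.52 at 6.5 h, -0.85 at 7 h, -0.25 at 7.5 h, 0.37 at 8 h and 0.63 at 10 h, and at or below -1.35 in every library from 0 to 6 h. NDE1 and NDI1 are not alternative forms, since they take NADH from different compartments. For NDE1 to NDI1 the ratio was -0.29 ± 0.72 at 6.5 to 10 h and -1.73 ± 0.61 at 4.75 to 6 h, a difference of 1.44 (exact p = 0.013, adjusted 0.0346). It was highest at 7.5 h, 0.42, and stood at -1.47 at 10 h, inside the range of the earlier window. Against 2 to 3 h the ratios of COX5B to COX5A and of NDE1 to NDI1 were higher by 1.78 and 1.92 (exact p = 0.0159 for each, adjusted 0.0346). None of the 3 ratios passed in the contrasts before 6 h. CYC1, COX5B and NDE1 had already been called higher in the late contrasts from these libraries, so the ratios are no separate tests of their rises. The permutation also treats successive libraries as exchangeable, which they may not be. With these few libraries the test has little room: leaving out any of the 2.25, 2.5, 2.75 or 3 h libraries or any of the 5 late libraries takes each of the 6 passing ratios past 0.05, to an adjusted p of 0.0519 to 0.0762. The 2 to 3 h libraries enter the 4.75 to 6 h results through the adjustment alone, and the differences kept their sign throughout. Of the libraries of the 4.75 to 6 h window, leaving out the 4.75, 5, 5.25 or 5.5 h library does the same to the CYC7 to CYC1 and NDE1 to NDI1 results and the 5.75 h library to the CYC7 to CYC1 result, with differences of -2.66 to -2.18 and 1.34 to 1.38. The sources used here do not say how the authors counted reads that match both members of a pair.

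**Figure D4:**
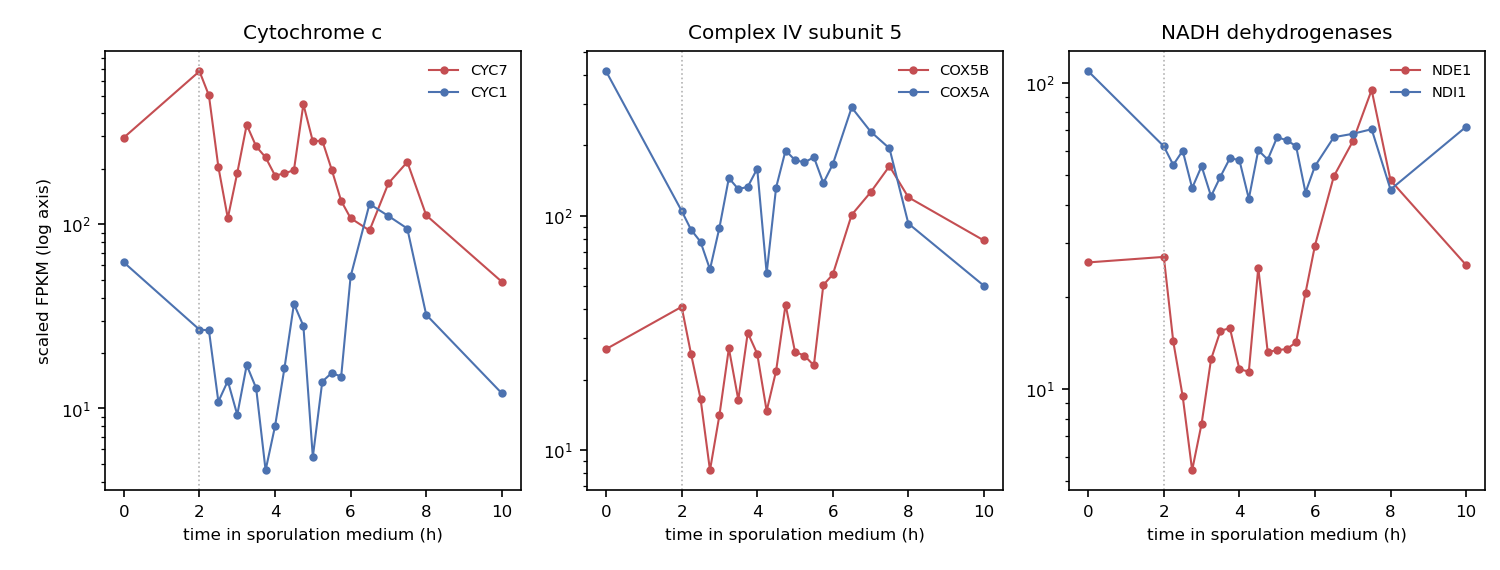
Scaled FPKM in every library, on log axes of their own, against hours in sporulation medium. The left and middle panels hold the alternative forms of cytochrome c and of subunit 5 of complex IV. The right panel holds NDI1 and NDE1, which take NADH from different compartments. The dotted line marks 2 h. CYC1 lies above CYC7 at 6.5 h alone. COX5B lies above COX5A at 8 and 10 h, and NDE1 above NDI1 at 7.5 and 8 h.

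Of the other complex IV genes, COX4, COX8 and COX12 were lower late. COX4 (YGL187C, chromosome VII, 149704 to 150525), the member of lowest listed mean level, averaged 4.58 ± 1.58 scaled FPKM at 6.5 to 10 h and 13.3 ± 4.94 at 4.75 to 6 h (SD, n = 5 and 6), a difference of -1.29 ± 0.32 (SE; adjusted p = 0.00302) that was -0.89 and not called with a pseudocount of 5. Its row spans 822 bases and the RefSeq gene 468, so its level may be understated and its rank among the members is not firm. COX8 differed by -1.08 ± 0.39 (adjusted p = 0.032), a call lost without the 4.75, 5.25, 6.5 or 7 h library (-1.03 to -0.77) and with the borders moved (-0.70, adjusted p = 0.241). COX12 differed by -1.96 ± 0.68 (adjusted p = 0.0256) and is listed at 0 in the 7 h library, without which the difference was -0.95 and not called. Without the 5.25 h library its adjusted p was 0.0507. COX13 fell over the course, with 629 scaled FPKM at 2.5 h and 161 at 3 h, and differed between 6.5 to 10 h and 2 to 3 h by -1.87 ± 0.31 (adjusted p = 4.83e-05). COX9, the member of highest level, lay between 1702 and 6673, but its row of 180 bases is so short that FPKM is unstable there, as it is for COX7 and ATP15. COX6 and COX7 were not called on the scaled values, with spline adjusted p of 0.448 and 0.513. COX7 was lower late with FPKM as deposited (-2.51, adjusted p = 0.015). COX7 is listed at 0 at 7.5 h.

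The ATP synthase, the largest group, held the most members that fell, although the share was larger in complex II, with 4 of 4. Of its 11 genes 9 fell over the course, ATP4 and ATP7 of the peripheral stalk were not called, and 6 were lower late, with a group median of -1.31. Among all genes tested, 39.8% fell and 17.1% were lower late. Not every fall lasted: ATP3 stood at 47.7 scaled FPKM at 2 h, 16.6 at 7.5 h and 46.1 at 10 h. Its late difference of -0.28 was not called. ATP2 (YJR121W, chromosome X, 647607 to 649142), the catalytic beta subunit, stood at 25.5, 17.1, 13.7, 13.9 and 44.7 scaled FPKM in the late libraries, against a lowest of 53.3, a median of 115 and a highest of 141 at 4.75 to 6 h. The windows do not overlap, and the difference was -2.17 ± 0.32 (SE; adjusted p = 2.67e-05). ATP5 (YDR298C, chromosome IV, 1058176 to 1058814), a subunit of the peripheral stalk, had the largest fitted range of the complex, 3.30. It was at 3.08, 0, 3.49, 3.18 and 7.12 in the late libraries and 8.63 to 25.7 at 4.75 to 6 h, a difference of -2.26 ± 0.43 (adjusted p = 0.000294).

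ATP20 differed by -2.12 ± 0.48 (adjusted p = 0.0016) and is listed at 0 at 8 h. The central stalk subunits ATP16 (delta) and ATP15 (epsilon) differed by -1.52 ± 0.32 and -1.50 ± 0.25 (adjusted p = 0.000706 and 8.05e-05). ATP15, the ATP synthase gene of highest level, averaged 490 ± 179 scaled FPKM at 6.5 to 10 h and 1338 ± 221 at 4.75 to 6 h (SD, n = 5 and 6). ATP1, the alpha subunit, differed by -1.31 ± 0.32 (adjusted p = 0.00282), a call lost with the borders moved (adjusted p = 0.06), and its row shares 15.3% of its length with another row. By contrast ATP7 averaged 24.7 ± 9.75 at 6.5 to 10 h and 27.4 ± 4.12 at 4.75 to 6 h and had the smallest fitted range of the complex, 0.82. ATP4 had 12.6, 22.5, 48.7, 53.8 and 50.2 in the late libraries, with its highest value of the 22 libraries at 8 h. The 10 h library differed from the other late ones in several of these genes: ATP1 stood at 33.6 there beside 7.94 to 14.9, and ATP2 at 44.7 beside 13.7 to 25.5.

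The members' courses were related to one another to unequal degrees. As a description over the 22 libraries from 2 h on, which share depth and scaling, Pearson's r of a member with the median of the other members ran from 0.79 for IDH2, 0.78 for ATP1 and 0.74 for IDH1 to -0.33 for KGD1, -0.29 for COX5B, -0.27 for CYC1 and -0.22 for NDE1. The 4 members that were higher late have the 4 lowest values. Calls and correlations come from the same libraries, so this match is partly built in and is no separate result. KGD2, the partner of KGD1, follows at -0.09.

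The 2 h and 0 h libraries, 1 each, were compared without a test. Of the 47 members 16 were at least 2-fold lower at 2 h than at 0 h and 2 were at least 2-fold higher, beside 18.4% and 14.6% of the 4062 genes that had at least 10 scaled FPKM in either library. The median member differed by -0.69 on the log2 scale and the median of those genes by -0.08. The ATP synthase held 7 of the 16, complex IV 4, the TCA cycle 3, and complex III and cytochrome c 1 each, while complex II and the NADH dehydrogenases held 0. ATP4 was at 34.4 scaled FPKM at 2 h and 349 at 0 h, a 10.1-fold lower level at 2 h, with deposited bounds of 27.8 to 45.9 FPKM at 2 h and 253 to 304 at 0 h. RIP1 was at 25 at 2 h and 184 at 0 h (7.37-fold lower at 2 h). ATP1 was 3.89-fold lower and ATP2 3.14-fold lower at 2 h.

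Of the genes that were higher at 2 h, ACO1 was at 189 scaled FPKM at 2 h and 88.1 at 0 h, and CYC7 at 678 at 2 h and 296 at 0 h. The cytochrome c pair moved apart, since CYC1 was at 26.8 at 2 h and 62.1 at 0 h. COX5A was at 105 at 2 h and 414 at 0 h, and COX5B at 40.9 at 2 h and 27 at 0 h. With FPKM as deposited, 8 members were at least 2-fold lower and 5 at least 2-fold higher, so the split depends on the scaling. The shares of all genes on that scale are not given here, so these counts have no background beside them.

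**Figure D5:**
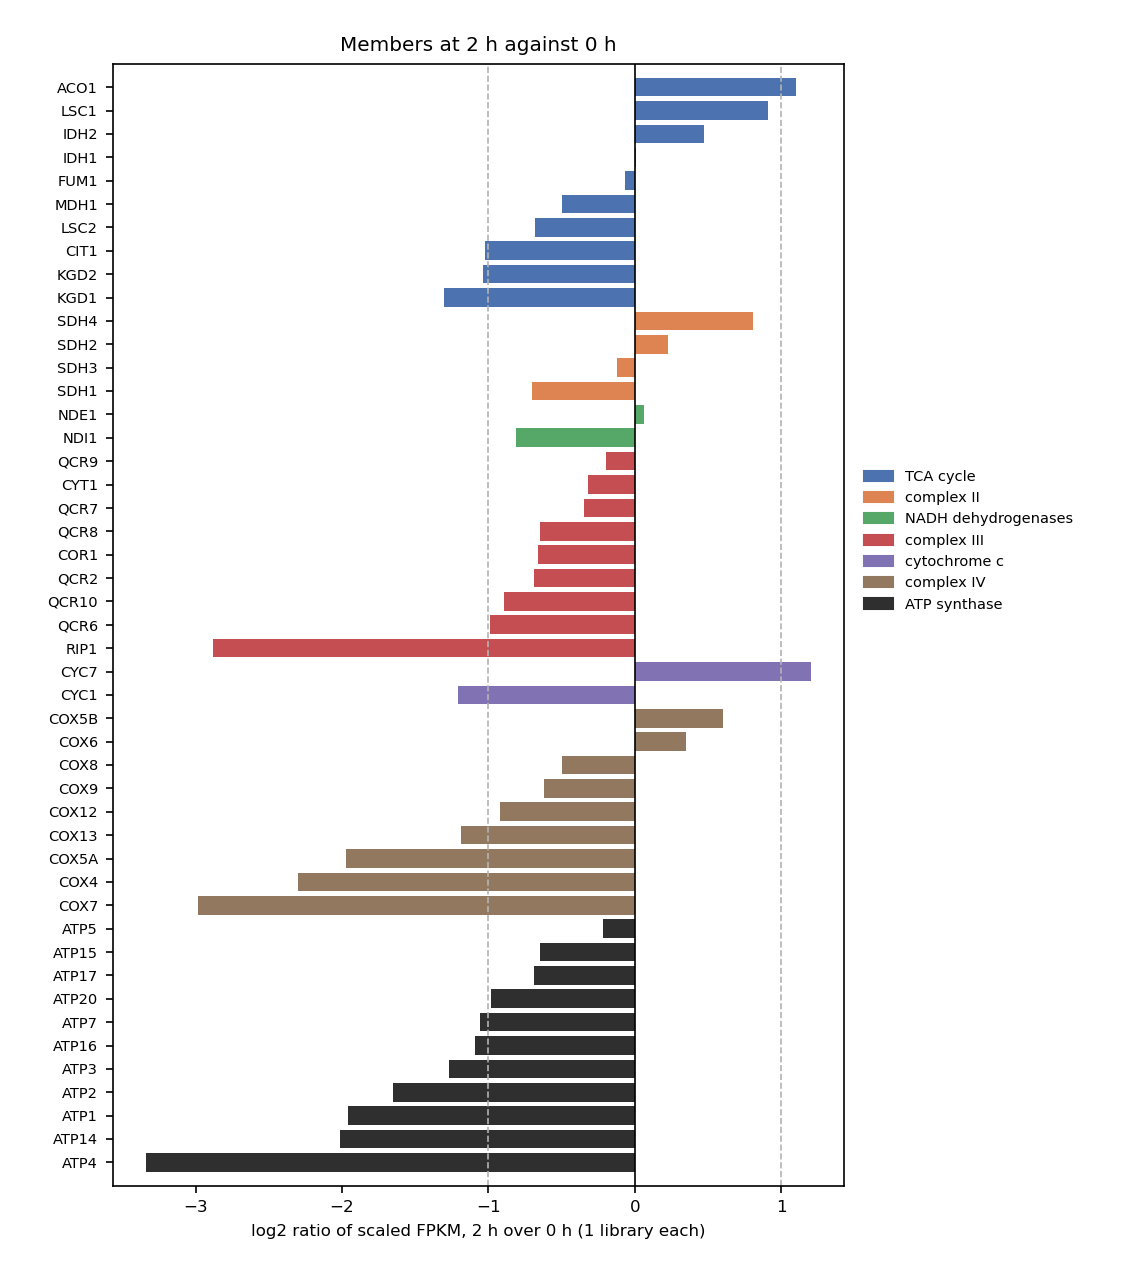
Bars give the log2 ratio of scaled FPKM at 2 h over that at 0 h for each member, 1 library each, grouped by complex; dashed lines mark a 2-fold difference. ATP4 reaches -3.34, the ATP synthase bars all lie left of 0, and CYC7 at 1.20 and ACO1 at 1.10 reach past the 2-fold line to the right.

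Other genes of the pathway were followed as lists. Their counts stand beside these shares of all genes tested: 38.1% rose and 39.8% fell over the course, and 15.8% were higher and 17.1% lower late. Among transcription regulators of respiration, 4 of 9 rose, 4 fell and 1 was not called over the course, and 2 were higher and 1 lower late. HAP4, the activating subunit of the HAP complex, stood at 145, 221, 257, 134 and 67.5 scaled FPKM in the late libraries and between 49.3 and 92 at 4.75 to 6 h. Against 2 to 3 h it was higher by 2.95 (adjusted p = 2.06e-06). Against 4.75 to 6 h it was higher by 1.19 ± 0.35 (adjusted p = 0.00922) on the scaled values, but by FPKM as deposited the difference was -0.01. That call was also lost under quantile normalisation (0.48), with the borders moved (1.09, adjusted p = 0.0637) and without the 7.5 h library (0.99). HAP3, a DNA-binding subunit, rose over the course (fitted range 2.81, adjusted p = 0.000706) with 13.4 to 216 in the late libraries, lowest at 10 h. By windows HAP3 was not called, with late differences of 0.74 against 2 to 3 h (limma adjusted p = 0.21) and 0.63 against 4.75 to 6 h (adjusted p = 0.285). The remaining subunits, named after their values were seen, had the other direction: against 2 to 3 h, HAP5 differed by -1.84 (adjusted p = 0.00147) and HAP2 by -1.07 (adjusted p = 0.000286). Neither was called with a pseudocount of 5 (-0.93 for HAP5 and -0.90 for HAP2), nor HAP2 with the borders moved (-0.94) or without the 6.5 or 7.5 h library (-0.97 and -0.96). HAP5 averaged 1.99 scaled FPKM at 6.5 to 10 h and 8.17 at 2 to 3 h.

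Upstream of the cycle, 2 of 5 pyruvate dehydrogenase genes rose, 2 fell and 1 was not called. PDB1 and PDA1, the subunits of its first enzyme, differed late by -1.61 ± 0.26 and -1.14 ± 0.25 (adjusted p = 6.47e-05 and 0.00126). Without the 8 h library PDA1 was at -0.99 and not called. Of 12 other isozymes and accessory subunits of the cycle 10 fell and 1 rose, and 4 were lower late. CIT2, the peroxisomal citrate synthase, averaged 20.3 scaled FPKM at 6.5 to 10 h and 177 at 4.75 to 6 h (difference -2.56, adjusted p = 0.00228; -1.75 and not called with the borders moved). IDP3, the peroxisomal isocitrate dehydrogenase, had the largest fitted range of that list, 6.06. It averaged 33.7 ± 24.1 scaled FPKM at 2 to 3 h, 5.07 ± 2.29 at 4.75 to 6 h and 30.2 ± 63.2 at 6.5 to 10 h (SD). Its fitted maximum was at 10 h. All 4 other electron donors to the chain fell by the spline test. DLD1 and CYB2, the lactate dehydrogenases, averaged 12 and 3.6 at 6.5 to 10 h and 102 and 27.1 at 2 to 3 h. GUT2, the mitochondrial glycerol-3-phosphate dehydrogenase, named after its values were seen, was the donor that was higher late (2.75 ± 0.37, adjusted p = 1.13e-05). Its fall reversed, with means of 296 ± 145 scaled FPKM at 2 to 3 h, 67.7 ± 39.9 at 4.75 to 6 h and 422 ± 121 at 6.5 to 10 h (SD).

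Genes that build the chain gave no single direction. Late, 4 of 9 genes of ubiquinone synthesis were lower, among them COQ8 (-2.50, adjusted p = 1.9e-06) and COQ6 (-1.89, adjusted p = 8.08e-05), and 2 were higher. Of 23 cytochrome c oxidase assembly and translation factors 2 were higher and 3 lower, with SCO1, a copper chaperone, higher by 1.68 (adjusted p = 0.0101). The SCO1 call was lost with FPKM as deposited (0.50) and with the borders moved (1.03). Of 13 assembly factors of complexes II and III, including the cytochrome haem lyases, 3 were higher and 3 lower. SDH6 differed by 1.94 (adjusted p = 0.00498) and SDH7 by -1.69 (adjusted p = 0.0219), both factors of complex II. The SDH6 call was lost with FPKM as deposited (0.75), under quantile normalisation (1.18) and with the borders moved (1.45). That of SDH7 was lost with a pseudocount of 5 (-0.80), with the borders moved (-1.44) and without the 7.5 or 10 h library (-1.28 for each). Of 12 small subunits, assembly factors and inhibitors of the ATP synthase 2 were lower, STF1 by -2.15 (adjusted p = 0.000942) the larger. Of 14 carriers and porins 5 were lower and 0 higher. SFC1, the succinate-fumarate carrier, differed by -1.39 (adjusted p = 0.0286), a call lost with the borders moved (-1.12) and without the 4.75, 5, 5.25 or 7.5 h library (-1.35 to -1.24).

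Genes of mitochondrial ribosomal proteins are set beside the members because these ribosomes make the partners coded in the mitochondrion. The 66 were taken by name alone, as MRPL, MRPS, or MRP or RSM followed by a digit. The list may thus hold other genes and miss some of these proteins. Of these 29 rose, 14 fell and 23 were not called over the course, beside 38.1% rising and 39.8% falling among all genes tested. Late 19 were higher and 6 lower, with a median of 0.10, beside 15.8% and 17.1% of all genes. MRPS17 and MRPL37 had the largest fitted ranges, 6.72 and 5.53, both as rises. The 7 mitochondrially coded partners, COX1, COX2, COX3, COB, ATP6, ATP8 and OLI1, have a listed value of 0 throughout, so no test was run on them.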

How the data were processed

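Each library gave 1 table in which the authors deposited FPKM per gene and, per the file headers, a low and a high confidence bound of it. Bowtie, Cufflinks 2.2.1 and the builds R64 and sacCer3 are named in the submitters' processing notes; the sources used here do not give the annotation, the strand setting or the treatment of reads that match several genes, so a gene and an antisense partner cannot be told apart. Of 7132 rows, 254 that name no gene and 11 that the status column marks as HIDATA were left out, and 6867 were used. The 47 members and the lists of other genes were chosen with earlier results of these data known.

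FPKM was divided by a library factor, the median of ratios over the 5046 genes above 0 in all 23 libraries, because the median FPKM of tested genes ran from 2.56 at 7.5 h to 19.5 at 4.75 h. Genes with a mean scaled FPKM of at least 1 were tested (6560; 307 were not), as log2(value + 1), which understates changes of low genes. Implied fragments, the square of 2 times the FPKM over the distance to its upper bound, take that bound as 2 standard errors of counting and cover counting error only. limma 3.58.1 in R 4.3.3 fitted the 22 libraries from 2 h on with a natural cubic spline (4 degrees of freedom) and, separately, with the 4 window means; p-values are two-sided and adjusted by Benjamini-Hochberg over all genes tested. Residuals of neighbouring libraries had a median autocorrelation of 0.0594 in the spline fit and 0.194 in the window fit. Ratios of CYC7 to CYC1, COX5B to COX5A and NDE1 to NDI1 were tested by exact permutation over libraries (SciPy 1.17.1), adjusted over 12 tests. The single libraries at 2 and 0 h were compared as at least 2-fold among genes of at least 10 scaled FPKM in either. Promoters were read from the R64 genome.

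Named with full values are, in each group, the member of highest mean level and those of largest and smallest fitted range. So are CYC1 and CYC7, COX5A and COX5B, NDI1 and NDE1, and members called between windows (up to 12 per contrast, largest first). Of each list, up to 2 genes of largest fitted range are named. Other names were added after their values were seen. Alternatives were the deposited scale, quantile normalisation, pseudocounts of 0.1 and 5, no filter or a mean of at least 5, splines of 3 and 5 degrees of freedom, windows moved by 1 library, no minimum level at 2 against 0 h, and each library left out in turn.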

Additional observations from a re-analysis of the deposited data

Results flagged for a closer look

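Within each window the highest or lowest library was compared with the others for every member, for the median log2 level of each group and for the 3 ratios, by its gap to the nearest library over the whole range. Of 228 windows checked 15 stood out, where chance alone gives about 1 in 20. The libraries of a window are successive times, so a library at its end can stand apart through a trend.

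The 4.5 h library was high for LSC1 (gap share 0.704; 350 scaled FPKM, next 149), MDH1 (0.63; 122, next 74.5) and QCR9 (0.645; 471, next 207). At 6 h, the last library of its window, the median of the NADH dehydrogenases was high (0.752; 5.34 on the log2 scale, next 4.96), as was ACO1 (0.705; 105 scaled FPKM, next 85.2), while QCR6 (0.639; 116, next 220), COX4 (0.722; 4.13, next 12.6) and COX13 (0.636; 110, next 179) were low. Among the late libraries the median of the ATP synthase was high at 10 h (0.782; 5.51 on the log2 scale, next 4.73), QCR6 was low at 10 h (0.757; 82.4 scaled FPKM, next 144), QCR7 low at 7 h (0.806; 59.8, next 91.3) and NDI1 low at 8 h (0.833; 44.8, next 66.4). FUM1 was low at 3.25 h, the first library of its window (0.788; 77.4, next 113), and COX5A low at 4.25 h (0.804; 56.9, next 130). The log2 ratio of CYC7 to CYC1 was low at 2.75 h (0.72; 2.84, next 4.11).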

How the results depend on the processing

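The deposited scale moved the most. On it 36 members were lower and 0 higher between 6.5 to 10 h and 4.75 to 6 h, 29 lower and 4 higher between 6.5 to 10 h and 2 to 3 h, 2 higher between 4.75 to 6 h and 3.25 to 4.5 h, and 8 at least 2-fold lower and 5 at least 2-fold higher at 2 h against 0 h. Quantile normalisation gave 31 lower and 2 higher in the first of these contrasts and 1 higher in each contrast before 6 h. Shares of all genes are given above for the deposited counts of the 2 late contrasts alone. The other counts of this section have no such background beside them and are not read as results about the members. With the borders moved, 2 members were higher late and 1 was higher between the first windows; the differences of log2 ratios were then -1.46 for CYC7 to CYC1 (adjusted p = 0.445) and 1.20 for NDE1 to NDI1 (adjusted p = 0.16) late, and 1.87 for NDE1 to NDI1 against 2 to 3 h (adjusted p = 0.0571).

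With 1 library left out, 0 to 1 members were higher and 0 to 1 lower between 3.25 to 4.5 h and 2 to 3 h, and 0 to 1 higher between 4.75 to 6 h and 3.25 to 4.5 h; late, 16 to 22 were lower and 3 to 5 higher. Late ratio differences ran from -3.07 to -2.18 for CYC7 to CYC1, 1.67 to 2.21 for COX5B to COX5A and 1.26 to 1.73 for NDE1 to NDI1, and those against 2 to 3 h from -3.28 to -2.63, 1.54 to 2.08 and 1.74 to 2.21. Of the called differences run under these alternatives (those of members, of the 3 ratios and of the genes of other lists printed with one), that of HAP4 late changed sign, to -0.01 with FPKM as deposited. Ratio differences that had not passed changed sign more often: CYC7 to CYC1 between 3.25 to 4.5 h and 2 to 3 h (0.01) was -0.06 with a pseudocount of 5, -0.08 with the borders moved and -0.27 to 0.34 with 1 library left out; NDE1 to NDI1 between 4.75 to 6 h and 3.25 to 4.5 h (-0.01) was 0.30 with the borders moved and -0.19 to 0.09 with 1 library left out, where CYC7 to CYC1 ran from -0.83 to 0.06 and COX5B to COX5A from -0.01 to 0.29. No paired analysis was possible because each time has 1 library. Depth limits the late values most: at 7 and 7.5 h the median member rests on 29 and 11 implied fragments, and 4 zeros fall at 7 to 8 h. The causes of these shifts were not tested.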
